A study of Mus musculus with 2 samples.

Results

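The genes of the hair shaft were examined on 2 one-colour arrays of primary mouse keratinocytes. They comprised the hair keratins Krt31, Krt32, Krt33a, Krt33b, Krt34, Krt35, Krt36, Krt81, Krt82, Krt84 and Krt86 and every keratin-associated protein gene (symbol beginning Krtap) for which a non-control probe carried a RefSeq accession. Of 68 such genes in the RefSeq gene table, 61 matched a probe, namely 11 hair keratins and 50 Krtap genes, among 20144 genes named on the array. Krt83, Krt85, Krtap28-13, Krtap4-13, Krtap29-1, Krtap16-1, Krtap27-1 and Krtap6-3 were not analysed here. The rule refers to gene names and accessions and not to measured values.

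The samples were labelled P3 primary keratinocytes of Mus musculus, 1 array for the genotype Rac3-KO, which the labels name as the control, and 1 for Rac1Rac3-DKO. Loss of Rac3, a small GTPase of the Rac family, is shared by both groups, and the labels add loss of its relative Rac1 in the second. What P3 stands for, the strain, the promoter behind the deletion, and whether cells of several animals were pooled are not given in the sources used here. With 1 array per genotype there was no replicate check and no test between genotypes, and every error below is technical. A level is the log2 processed signal minus the 75th percentile of its array, and a difference is the level on the array labelled Rac1/Rac3-DKO minus that on the Rac3-KO array. Lower and higher are relative to that percentile: scaling to spike-in controls instead moved the median difference of all measured genes to -2.08 and left 14 of them 2-fold or more higher.

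The hair shaft is built by cells of the follicle matrix that move upward and harden. They first fill with keratin filaments, in which an acidic type I hair keratin pairs with a basic type II hair keratin, and then with small keratin-associated proteins that embed the filaments in a cross-linked matrix. Some of these small proteins are rich in cysteine (the high and ultra-high sulfur families) and others in glycine and tyrosine. The genes lie in clusters: the type I keratins beside many sulfur-rich Krtap genes on mouse chromosome 11, the type II keratins on chromosome 15, most glycine-tyrosine-rich Krtap genes on chromosome 16, and smaller Krtap groups on chromosomes 7 and 10. These transcripts belong to the hair follicle and not to the epidermis between follicles.

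Of 55678 probes, 56.9% carried the scanner software's flag for spots clearly brighter than background in the Rac3-KO sample, against 52.9% in the other. The 75th percentile of the processed signal was 705 and 354, and no spot was saturated. The samples held RNA of many skin cell types. The list of 10 basal keratinocyte markers was measured in full and had summed signals of 481127 (Rac3-KO) and 88258 (DKO-labelled), whereas 10 muscle markers summed to 261756 and 726201 and 8 fibroblast markers to 1058460 and 935388. The fibroblast collagen Col1a2 alone reached 393716 and 357516. Fewer cells of a type and less RNA per cell cannot be told apart in such bulk samples. The Rac1 probes differed by 0.28 and -0.12 between the arrays, and neither bore out the labelled loss of Rac1 in the second sample. The Rac3 probe differed by 0.24, and the labels, with Rac3 lost in both samples, call for no difference. It was well above background on both arrays, at signals of 99.8 and 59.1, which does not bear out the labelled loss of Rac3. Where these probes lie relative to the deleted parts is not known here.

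Most hair shaft genes were readable in the Rac3-KO sample, and a smaller number in the other. On the Rac3-KO array 44 of the 61 genes (72.1%) were well above background, close to the 74.5% of all named genes. On the DKO-labelled array 28 (45.9%) were, while all named genes stood at 71.4%. With the software's positive-and-significant flag in place of that criterion the counts were 55 and 42, and with a floor of 2 times the lowest signal 42 and 23. By the first criterion all 28 were among the 44: 16 genes were detected only in the Rac3-KO sample, 0 only in the other, and 17 in neither. Of the genes detected on the Rac3-KO array, 36.4% of the hair shaft genes were thus no longer detected on the DKO-labelled array, against 5.72% of all named genes. Over all named genes detected on the DKO-labelled array, 1.6% were not detected on the Rac3-KO array.

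The 16 genes had processed signals of 38.1 to 318 on the Rac3-KO array. Of the 3595 named genes detected there with a signal in that range, 15.0% were not detected on the DKO-labelled array. The 5.72% above includes brighter genes, and the range was set by the 16 genes themselves. Loss of detection touched hair keratins and the Krtap clusters of chromosomes 10, 11 and 16. In the chromosome 7 cluster 4 of 5 genes were detected on both arrays and none on a single array.

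**Figure D1:**
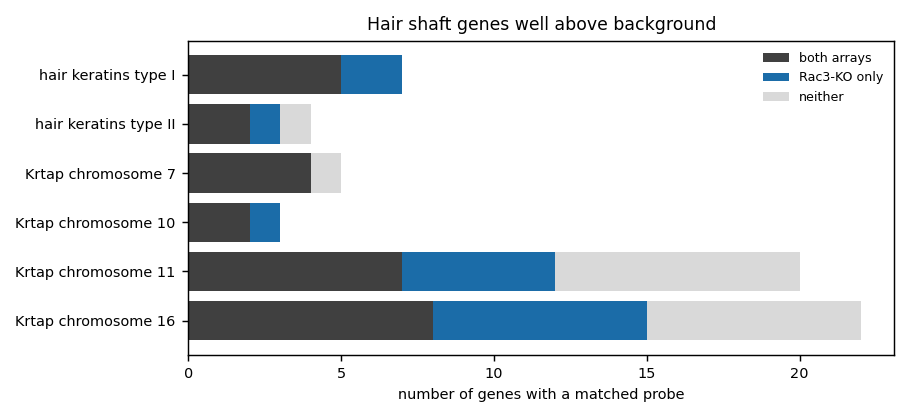
Number of hair shaft genes (horizontal axis) in each group, divided by the arrays on which they were well above background (dark, both arrays; blue, Rac3-KO only; light, neither). The blue part is 7 of 22 genes in the chromosome 16 cluster and 5 of 20 in the chromosome 11 cluster, and it is absent in the chromosome 7 cluster.

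Promoter sequence was available from RefSeq (build GRCm38.p6) for 52 of the 61 genes. It is shown for genes at both ends of the range of differences described below: Krt33b, Krt34, Krtap6-1 and Krtap8-1 were far lower on the DKO-labelled array, and Krtap17-1 and Krtap19-4 were higher. Each line gives the 150 bases before the annotated start, 5′ to 3′ on the strand of the gene, with TATAAA and matches to a Lef1/Tcf motif, on either strand, in capitals.
Krt33b, chr11:100029869-100030018, minus strand: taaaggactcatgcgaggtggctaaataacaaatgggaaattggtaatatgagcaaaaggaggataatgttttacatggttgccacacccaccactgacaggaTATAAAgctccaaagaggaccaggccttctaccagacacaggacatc
Krt34, chr11:100041555-100041704, minus strand: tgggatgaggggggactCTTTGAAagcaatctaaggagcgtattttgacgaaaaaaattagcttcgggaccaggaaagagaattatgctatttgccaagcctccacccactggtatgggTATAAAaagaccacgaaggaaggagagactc
Krtap6-1, chr16:89031549-89031698, plus strand: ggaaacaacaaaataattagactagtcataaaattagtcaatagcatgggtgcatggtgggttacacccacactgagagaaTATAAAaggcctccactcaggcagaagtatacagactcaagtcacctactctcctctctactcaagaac
Krtap8-1, chr16:89487953-89488102, minus strand: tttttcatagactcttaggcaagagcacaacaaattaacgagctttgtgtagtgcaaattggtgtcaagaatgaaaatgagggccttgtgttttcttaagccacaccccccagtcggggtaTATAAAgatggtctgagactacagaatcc
Krtap17-1, chr11:99993995-99994144, minus strand: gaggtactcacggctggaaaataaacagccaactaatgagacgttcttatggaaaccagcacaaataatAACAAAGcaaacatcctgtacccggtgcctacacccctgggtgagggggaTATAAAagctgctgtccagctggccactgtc
Krtap19-4, chr16:88885090-88885239, minus strand: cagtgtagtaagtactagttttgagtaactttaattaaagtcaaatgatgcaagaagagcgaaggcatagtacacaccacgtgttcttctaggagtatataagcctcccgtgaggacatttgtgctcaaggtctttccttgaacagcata

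The letters TATAAA, the core of a promoter element that positions the start of transcription, were common to many of these promoters. They lay between 45 and 16 bases before the start, on the gene's own strand, in 30 of 52 promoters (57.7%), beginning at a median position of -31, against 2.14% of all 32851 promoters in the table. Anywhere in the 250 bases upstream the shares were 76.9% and 7.59%. In the lines above TATAAA begins at -31 for Krt34 and Krtap17-1, at -29 for Krtap8-1, at -47 for Krt33b and at -69 for Krtap6-1, and it is not among the letters shown for Krtap19-4.

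Matches to Lef1/Tcf (CTTTGAA or CTTTGAT or CTTTGTA or CTTTGTT, either strand, 250 bases) were found in 20 of 52 promoters (38.5%), against 14.8% of all. Lef1 is a Wnt-responsive factor of the hair matrix. Matches to a motif of Hoxc13, an activator of hair keratin genes (TTTATNAG or TTTATNGG, either strand), were found in 12 (23.1%) against 5.66%. These lay in 4 of 5 type I and 2 of 2 type II hair keratin promoters. Of Krtap promoters, 3 of 18 on chromosome 11, 3 of 21 on chromosome 16, 0 of 5 on chromosome 7 and 0 of 1 on chromosome 10 had a match. Matches to GACGC, a core bound by Foxn1, the factor lost in nude mice, were found in 4 (7.69%) against 22.6%. TATAAA in the window near the start was present in 9 of 14 promoters of genes detected on the Rac3-KO array only, in 7 of 11 of measured genes with a difference below 0 and in 6 of 11 with a difference above 0. None of these shares was adjusted for base composition or for likeness between promoters of related genes. A match is a description of letters and not a bound site.

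The hair keratins had lower levels in the DKO-labelled sample, by more than 2-fold for some and by less than 1.5-fold for others. Of the 11 genes, 7 could be measured on both arrays, and all 7 had a difference below 0, except that Krt36 turned to 0.05 with normexp background correction. A decrease of 2-fold or more was seen for 4 of the 7 and an increase of that size for 0. Over all 14145 measured genes the shares were 6.62% and 7.71%, so that 53.8% of the genes past 2-fold were higher, or 43.6% when the arrays were scaled to their medians. The median difference of the 7 was -1.69, beside -0.01 over all measured genes. With the 3 hair keratins detected on the Rac3-KO array only at their bound it was -1.10. Whether a hair keratin probe also reads another hair keratin was not tested, so the 4 decreases need not be independent.

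Among the type I keratins, Krt33a and Krt33b, both filament proteins of the hair cortex, were low on the DKO-labelled array. Krt33a had a processed signal of 1018 in the Rac3-KO sample and 149 in the DKO-labelled one, a difference of -1.78 with a software error of 0.21, or 3.44-fold lower. Krt33b had signals of 348 and 39.9, a difference of -2.13 with an error of 0.25, or 4.38-fold lower. The difference exceeded the error several times over for both, although normexp reduced that of Krt33b to -1.13. Krt34, another cortex keratin, gave a signal of 216 on the Rac3-KO array and was not well above background on the other. On the processed signal that places it at least 5.41-fold lower. Such bounds leave out the signal error, and none is given with normexp, so they are minima on this scale only.

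The other type I keratins stood closer together on the arrays. Krt35, which in human follicles is among the earliest hair keratins of the matrix and precortex, had signals of 11051 and 4251 and a difference of -0.39 with an error of 0.20. Krt31, a cortex keratin, had signals of 446 and 169 and a difference of -0.40 with an error of 0.21. Krt36 had signals of 347 and 155, and its probes differed by -0.17 and 0.02. Each of these 3 differed by less than 1.5-fold, and the scatter between different probes of a gene across the array had a root mean square SD of 0.38. Krt32, a keratin of the hair cuticle in human, was detected on the Rac3-KO array only, at a signal of 47.2. It was at least 1.18-fold lower, a bound of 0.24 in log2 that is smaller than that SD.

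Both type II keratins measured on the 2 arrays were more than 2-fold lower. Krt81 had signals of 2019 and 314, a difference of -1.69 with an error of 0.21, or 3.23-fold lower. Krt86 had signals of 527 and 53.3, a difference of -2.31 with an error of 0.24, or 4.97-fold lower. In human both are keratins of the hair cortex. For Krt86 normexp reduced the difference to -1.23. The cuticle keratin Krt82 was detected on the Rac3-KO array only, at 57.1, and was at least 1.43-fold lower. Krt84 was not well above background on either array.

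**Figure D2:**
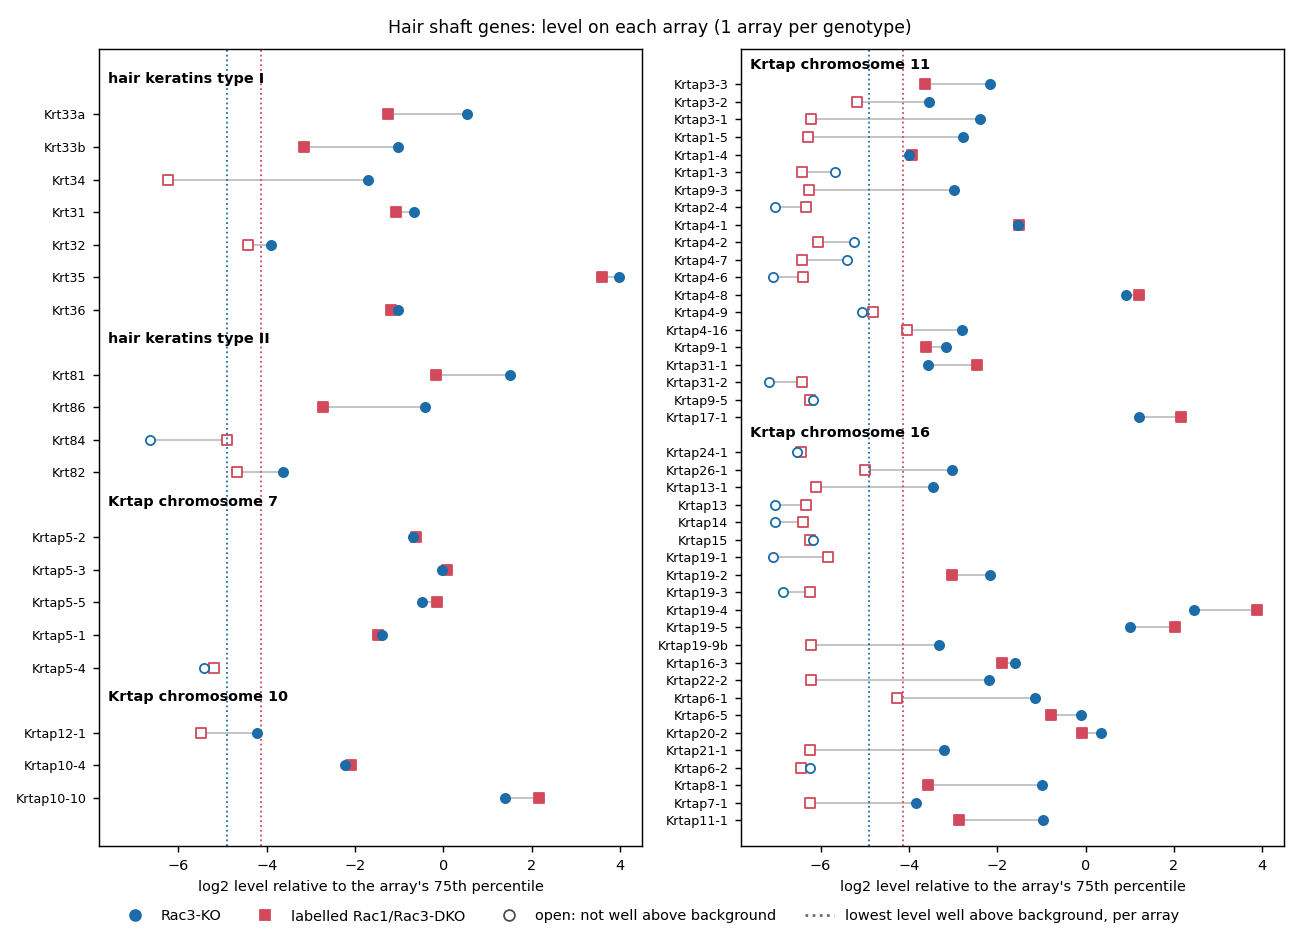
Log2 level of each of the 61 hair shaft genes relative to the 75th percentile of its array (horizontal axis), by gene group and in chromosome order, on the Rac3-KO array (blue circles) and the DKO-labelled array (red squares). Open symbols were not well above background and dotted lines mark the lowest level that was; Krt35 lies near 4 on both arrays, whereas Krt33a, Krt33b, Krt81 and Krt86 are shifted to lower levels on the DKO-labelled array.

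Keratin-associated proteins did not move as a single group. Of 50 Krtap genes 34 were detected on the Rac3-KO array and 21 on both. Among these 21, Krtap3-3, Krtap8-1 and Krtap11-1 were down by 2-fold or more. Krtap19-4, Krtap19-5 and Krtap31-1 were up by as much, though below 0 when scaled to spike-ins (-0.65, -1.06 and -0.98). Over all measured genes 6.62% were lower and 7.71% higher by 2-fold or more. Krtap19-5 and Krtap31-1 fell short of 2-fold with normexp and with median scaling. The median of the 21 was 0.06. It was -0.44 over the 34 when genes detected on the Rac3-KO array only stood at their bound, which adds genes detected only where they were bright. A further 13 of the 34 were detected on the Rac3-KO array only. The share was 5.72% over all named genes detected there and 15.0% in the signal range of the hair shaft genes so lost. By their bound, 7 of the 34 were at least 2-fold down, against 1.25% of all named genes detected on that array. The 1.25% includes brighter genes, and no such share is given for genes of like signal.

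The chromosome 16 cluster held the widest spread. Krtap8-1, a glycine-tyrosine-rich protein of the cortex, had signals of 356 (Rac3-KO) and 30.1 (DKO-labelled), a difference of -2.57 with an error of 0.30, or 5.96-fold lower. Krtap11-1, of the high sulfur class, had signals of 358 and 48.9 and was 3.68-fold lower at its brighter probe, but its other probe, at 94.4 and 39.6, differed by -0.26. The Krtap11-1 value therefore depends on the probe. Krtap6-1 had a signal of 318 on the Rac3-KO array, was not well above background on the other and was at least 7.96-fold lower. Krtap22-2, at 154, was at least 3.85-fold lower by the same measure. Normexp reduced the difference of Krtap8-1 to -1.30 and that of Krtap11-1 to -1.02.

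The members of chromosome 16 that were higher belong to the Krtap19 family, of the glycine-tyrosine-rich class. Krtap19-4 had signals of 3839 and 5176, a difference of 1.42 with an error of 0.20, or 2.68-fold higher. Krtap19-5 had signals of 1419 and 1443 at its brighter probe and 694 and 706 at the other, and both probes gave a difference of 1.02, which normexp and median scaling moved below 2-fold, to 0.98 and 0.92. Krtap19-4 was brighter on the DKO-labelled array even before scaling, and Krtap19-5 was nearly equal. The same family also held Krtap19-2, at 158 and 43.4 with a difference of -0.87 and an error of 0.27 that normexp moved to -0.12, and Krtap19-9b, which was detected on the Rac3-KO array only at 70.7. Krtap19-1 and Krtap19-3 were not detected. Genes of this family are close copies of each other, and a probe may read more than its own gene, which was not tested.

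The remaining chromosome 16 genes measured on both arrays were Krtap6-5 (655 and 206, difference -0.68), Krtap20-2 (898 and 337 at its brightest probe, difference -0.42) and Krtap16-3 (231 and 95.6, difference -0.28). All 3 differed by less than 2-fold. Of the 4 probes of Krtap20-2, another gave -0.15, the next was detected on the Rac3-KO array only and the last on neither. Krtap26-1, Krtap21-1, Krtap13-1 and Krtap7-1 were detected on the Rac3-KO array only, with at-least folds of 2.17, 1.90, 1.60 and 1.23. Krtap24-1, Krtap13, Krtap14, Krtap15 and Krtap6-2 were not detected. Over the 8 genes of this cluster measured on both arrays the median was -0.55.

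In the chromosome 11 cluster 4 of the 6 genes of the Krtap1 and Krtap3 families, high sulfur proteins of the cortex, were lower on the DKO-labelled array or no longer detected there. Krtap3-3 had signals of 156 and 28.4, a difference of -1.47 with an error of 0.32, or 2.77-fold lower, which normexp reduced to -0.41. Krtap3-1, at 134 on the Rac3-KO array, was at least 3.35-fold lower, Krtap1-5, at 102, at least 2.56-fold, and Krtap3-2, at 60.7, at least 1.52-fold. Krtap1-4 differed by 0.07, with signals of 44.2 and 23.3 near the floor of detection, and Krtap1-3 was not detected. Of these families together, 5 of 6 genes were detected in the Rac3-KO sample and 2 in the other, where all named genes stood at 74.5% and 71.4%.

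The ultra-high sulfur families of the same cluster, Krtap4 and Krtap9, gave other values. Krtap4-8 had signals of 1337 and 821 and a difference of 0.29 with an error of 0.20. Krtap4-1 had signals of 246 and 125 and a difference of 0.02. Krtap9-1 had signals of 79.2 and 28.8 and a difference of -0.47, which turned to 0.28 with normexp. These 3 differed by less than 1.5-fold. Krtap4-16 and Krtap9-3 were detected on the Rac3-KO array only, with at-least folds of 2.35 and 2.24. Krtap4-2, Krtap4-6, Krtap4-7, Krtap4-9, Krtap9-5, Krtap2-4 and Krtap31-2 were not detected.

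At the end of this cluster next to the keratins, Krtap17-1, known in human as a protein of the hair cuticle, had signals of 1618 and 1593 and a difference of 0.97 with an error of 0.20. Krtap31-1 had signals of 59.8 and 64.0, a difference of 1.09 with an error of 0.26, or 2.13-fold higher. Krtap17-1 lay just under the 2-fold threshold and Krtap31-1 just past it. With normexp and with median scaling Krtap31-1 was short of it, at 0.98 and 0.996, and on the spike-in scale Krtap17-1 and Krtap31-1 stood at -1.10 and -0.98. Over the 7 Krtap genes of chromosome 11 measured on both arrays the median was 0.07, which turned to -0.03 when the arrays were scaled to their medians. With the 5 genes detected on the Rac3-KO array only at their bound it was -0.54.

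The Krtap genes of chromosomes 7 and 10 include cuticle proteins, and those measured on both arrays differed by less than 2-fold. Of the Krtap5 family on chromosome 7, Krtap5-1 had signals of 269 and 126, Krtap5-2 of 440 and 231, Krtap5-3 of 689 and 377 and Krtap5-5 of 502 and 319. Their differences lay between -0.10 and 0.34, with a median of 0.09 that became -0.0014 on the median scale, and Krtap5-4 was not detected. The 3 Krtap5-5 probes detected on both arrays ranged from -0.76 to 0.34, and another was detected on the Rac3-KO array only, so the direction for Krtap5-5 depends on the probe. On chromosome 10, Krtap10-10 had signals of 1854 and 1581 and a difference of 0.76 with an error of 0.20. Krtap10-4 had signals of 151 and 83.3 and a difference of 0.13. Krtap12-1 was detected on the Rac3-KO array only, at 38.1, too dim for a bound against the floor of the other array.

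**Figure D3:**
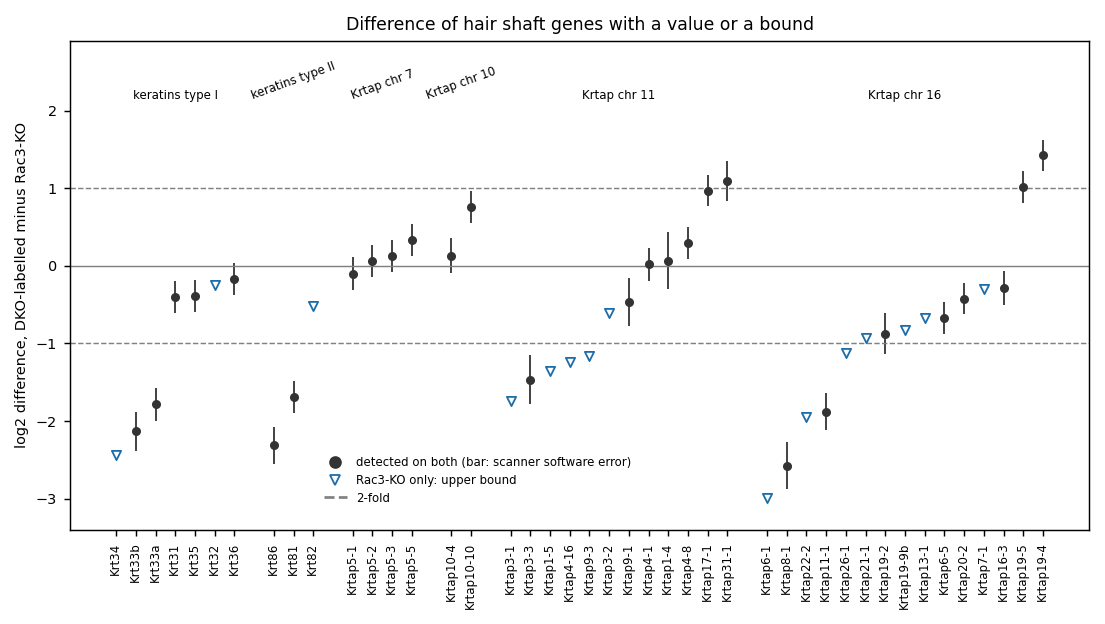
Log2 difference, DKO-labelled minus Rac3-KO, of the hair shaft genes detected on at least 1 array, except Krtap12-1, which has no bound, by gene group (dots, detected on both arrays, with the software's signal error; open triangles, upper bound for genes detected on the Rac3-KO array only; dashed lines, 2-fold). Values measured on both arrays run from -2.57 for Krtap8-1 to 1.42 for Krtap19-4, and none of the 7 measured hair keratins lies above 0.

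Grouped by protein class from the family number, the same genes gave the following values. None of the 8 ultra-high sulfur Krtap genes measured on both arrays passed 2-fold in either direction, a count near the shares of 6.62% lower and 7.71% higher over all measured genes, and they ranged from -0.47 to 0.97 with a median of 0.09. Of 6 glycine-tyrosine-rich genes, Krtap8-1 was down and Krtap19-4 and Krtap19-5 were up by 2-fold or more (median -0.55). Of 7 high sulfur genes, Krtap3-3 and Krtap11-1 were down and Krtap31-1 was up by as much. Their median of 0.07 was -0.28 without the Krtap10 family, whose class was reassigned after values were seen. With genes detected on the Rac3-KO array only at their bound, the medians were 0.04 (ultra-high sulfur), -0.82 (glycine-tyrosine-rich) and -0.60 (high sulfur). Detection in the Rac3-KO sample only concerned 2 of the 10 ultra-high sulfur genes detected there, 5 of 11 glycine-tyrosine-rich genes and 6 of 13 high sulfur genes. For all named genes detected there the share was 5.72%, or 15.0% in the signal range of the hair shaft genes detected there only. The classes were not matched for signal. The high sulfur class took every family not listed in another class, Krtap16 included, and no class was checked against protein sequence. These classes were not tested against each other.

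Near the 2-fold threshold, the measured genes just past it on the lower side were Krtap3-3 (-1.47), Krt81 (-1.69) and Krt33a (-1.78), and those just short of it Krtap19-2 (-0.87), Krtap6-5 (-0.68) and Krtap9-1 (-0.47). On the higher side Krtap19-5 (1.02), Krtap31-1 (1.09) and Krtap19-4 (1.42) were past it, and Krtap17-1 (0.97), Krtap10-10 (0.76) and Krtap5-5 (0.34) short of it. By these values the higher calls were close to the threshold for Krtap19-5 and Krtap31-1, and the lower calls were further from it. With normexp, however, Krtap3-3 fell short at -0.41, and Krtap11-1, Krt33b and Krt86 came close at -1.02, -1.13 and -1.23. A stricter filter on dim probes kept 4 of the 7 lower calls.

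Listed regulators linked to hair shaft formation were detected on both arrays without exception and were partly lower. Some of them, such as Ctnnb1, Smad4 and Tcf3, are not particular to the follicle. Of 22 listed regulators 5 were down by 2-fold or more and 0 were up by as much (median -0.62), against 6.62% and 7.71% of all measured genes. The lowest were the epidermal and follicle factors Grhl3 (-1.49), Sox21 (-1.37), Gata3 (-1.15) and Sp6 (-1.13), and the fifth was Foxn1 with signals of 233 and 57.1 and a difference of -1.04. Hoxc13 had signals of 1194 and 315 and a difference of -0.93, and Lef1 signals of 2711 and 743 and a difference of -0.88. Both fell short of the 2-fold threshold. The highest values were 0.83 for Dlx3, a homeobox factor, 0.32 for Klf4, 0.30 for Barx2 and 0.13 for Foxq1, which normexp moved to 0.54. With normexp 2 of the 22 were down by 2-fold, and Sp6 stood at -0.57. The mean over the probes of Sox21 was -0.75.

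A companion list of other genes linked to the shaft and its sheath included many with lower levels. Not all of these genes encode structural proteins, and not all are confined to the follicle. Of 30 listed genes 23 were measured on both arrays. A decrease of 2-fold or more was found for 11 of them and such an increase for 0 (median -0.94), beside 6.62% and 7.71% of all measured genes. The calmodulin-like gene Calm4 had signals of 28256 and 2757 and a difference of -2.37. Trichohyalin, Tchh, which hardens the inner root sheath, had signals of 10537 and 1073 and a difference of -2.30, and the inner root sheath keratins Krt71 and Krt27 differed by -1.94 and -1.82. S100a3, a calcium-binding protein of the hair cuticle, had signals of 2290 and 460 and a difference of -1.32. The highest values were 0.73 for Selenbp1, 0.72 for the transglutaminase Tgm3, 0.58 for the deiminase Padi1 and 0.56 for Crym. The mean over both Tgm3 probes was -1.39, so its direction depends on the probe. The companion list shares 8 genes with the inner root sheath markers. The regulator list shares 4 with the hair matrix and follicle progenitor markers and 1 with the inner root sheath markers.

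Markers of other cell types moved on the same arrays. The 10 basal keratinocyte markers had a median difference of -1.65, with Krt5 at -1.20, or -1.59 as the mean over its probes, and Krt15 at -2.31. For 8 measured suprabasal markers the median was -2.04, with Krt10 at -4.50 and Krtdap at -1.92. The 7 measured inner root sheath markers had a median of -1.23, with Krt28 at -0.83, and the 7 measured hair matrix and follicle progenitor markers -1.04, with Lhx2 at -1.27. Melanocyte markers, 7 measured, had a median of -1.30, with Dct at -1.50 and Pmel at -0.68. The 7 measured dermal papilla markers had a median of -0.12, with Wif1 at -0.12 and Rspo3 at -0.10. The Krtap median of 0.06 rests on genes bright enough for both arrays.

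Muscle, fibroblast, leukocyte, endothelial, adipocyte and erythroid markers had medians above 0 on the scale of the 75th percentile. Scaled to spike-ins, Csf1r, Itgam, Kdr and Cldn5 turned to -0.63, -0.91, -0.91 and -0.9997. On that scale Col1a2 and Col3a1 stood at -1.22 and -1.29, Fabp4 and Adipoq at -1.69 and -1.51, and Hba-a1 and Hbb-bt at -1.35 and -1.15. The 10 muscle markers had a median of 2.62, with Tnni2 at 2.66 and Tnnc2 at 2.40. Of fibroblasts, 8 markers had a median of 0.79, with Col1a2 at 0.85 and Col3a1 at 0.79. The 7 leukocyte markers matched had a median of 0.99, with Csf1r at 1.45 and Itgam at 1.16, or 0.55 as the mean over the Itgam probes. The 6 endothelial markers had a median of 0.61, with Kdr at 1.17, or 0.70 as the mean over its probes, and Cldn5 at 1.07. Of 5 adipocyte markers 4 were measured, with a median of 0.49, Fabp4 at 0.38 and Adipoq at 0.57, and Lep was not detected. Of 4 erythroid markers 3 were measured, with a median of 0.72, Hba-a1 at 0.72 and Hbb-bt at 0.92. Quantile normalization moved Col1a2 to 0.10, Hba-a1 to 0.03 and Hbb-bt to 0.40. The part of cell composition in the hair shaft values was not tested.

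**Figure D4:**
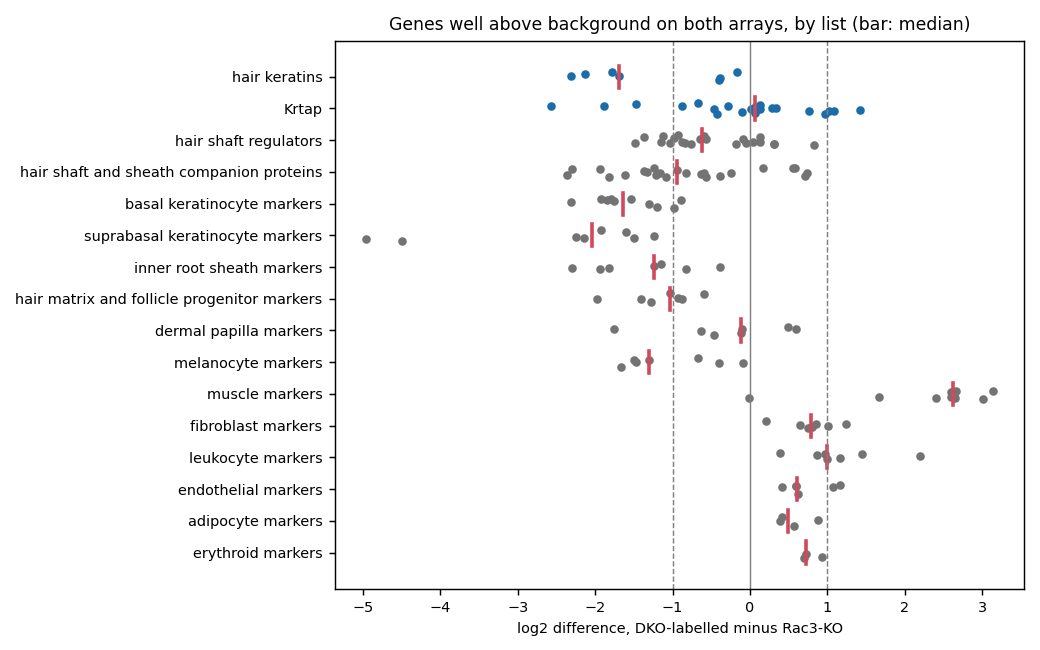
Log2 difference, DKO-labelled minus Rac3-KO, of genes detected in both samples (dots), by list, with the list median as a red bar and dashed lines at 2-fold. Hair keratins have a median of -1.69 and Krtap genes of 0.06, between suprabasal keratinocyte markers at -2.04 and muscle markers at 2.62. Genes detected on the Rac3-KO array only are not drawn. With them at their bound the medians were -1.10 for hair keratins and -0.44 for Krtap genes.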

How the data were processed

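RNA of primary keratinocytes, 1 sample per genotype, was labelled with Cy3 and hybridised to 1-colour Agilent arrays on a single slide and scan. The deposited scanner files hold spot intensity extracted with Feature Extraction 10.10.1.1 and detrended within each array, per the file headers, whereas version 9.1 is the one in the submitters' processing notes. Values in the authors' deposited table are log2 processed signals from which a constant near the array's 75th percentile was taken (checked to a tolerance of 0.001).

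Control spots and outlier spots (155 and 190) were left out, spots of a probe averaged, and each array's 75th percentile subtracted, leaving 55678 probes. Accessions were matched without versions to the RefSeq gene table of GRCm38.p6, used for names and gene order only, since the array design names an earlier build. A gene took its probe with the highest mean level, and counted as measured if both arrays flagged that probe well above background. For a gene detected on a single array, the at-least fold is taken against a floor on the other array: the dimmest level flagged there (signals of 23.4 and 20.1), or the dim probe's level if that is higher. This bound refers to the processed signal scaled to the 75th percentile and leaves out the signal error. Signal error is the software's, combined over both arrays. Normexp (limma 3.58.1, R 4.3.3, offset 50) used median spot signals. The calculation was tested on simulated data.

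The genes and lists were chosen with earlier results of these data known. All hair keratins were to be named, and of Krtap genes, per cluster, the 3 brightest and the 2 with the lowest and highest difference, the 5 largest at-least folds, the 3 on each side of the 2-fold threshold, up to 4 each way of the other lists and the 2 brightest of each marker list. Further genes are named to account for every hair shaft gene, and Foxn1, Hoxc13 and S100a3 were chosen after their values were seen. Protein class was taken from the family number, in place of the planned amino acid composition, because no protein table was used here: families 6, 7, 8 and 18 to 22 as glycine-tyrosine-rich, 4, 5, 9 and 17 as ultra-high sulfur, and all others as high sulfur. Flg and Cd68 matched no probe.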

Additional observations from a re-analysis of the deposited data

How the results depend on the processing

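No paired analysis was possible because each genotype had 1 array, and no replicate could be left out. Settings tried were normexp, scaling to the median, to the 75th percentile of probes detected on both arrays, by quantiles or by spike-ins, no filter on dim probes or a stricter one, averaging the probes of each gene, the deposited table, other fold thresholds and an error filter. A median counted as moved when it shifted by 0.38 or more, the SD between probes, and a count when it changed over 1.5 times. Before scaling, the difference was 1.08 for spike-in signals and -0.99 for the 75th percentile. Spike-in scaling moved the median of all measured genes to -2.08. On that scale medians were -2.30 for the hair shaft genes, -2.48 for type I hair keratins, -2.01, -2.62 and -1.98 for Krtap on chromosomes 11, 16 and 7, -2.62, -2.01 and -1.98 for glycine-tyrosine-rich, high sulfur and ultra-high sulfur Krtap, -2.69 for regulators and -3.01 for companion proteins. At least 2-fold lower were then 26, 22 and 23 of the hair shaft genes, regulators and companions, and 0 hair shaft genes were higher. Krtap19-4 turned to -0.65, Krtap19-5 to -1.06, Krtap31-1 to -0.98, Csf1r to -0.63, Itgam and Kdr to -0.91 and Cldn5 to -0.9997. Genes named as higher by less than 2-fold, such as Col1a2 and Fabp4, were below 0 on that scale as well. The 7 hair shaft genes at least 2-fold lower became 23 with no filter, which counts signals at the floor, and 4 with the stricter filter, which removed Krt33b, Krtap3-3 and Krtap8-1 as too dim; normexp kept 6 of the 7. The 3 higher became 1 with normexp, 1 with median scaling, 5 with no filter, 5 at 1.5-fold and 0 at 3-fold. Regulators at least 2-fold lower (5) were 2 with normexp, 12 at 1.5-fold and 0 at 3-fold, and companions (11) were 5 at 3-fold. At 1.5-fold 1 regulator and 2 companions were higher. With the stricter filter the chromosome 11 Krtap median was 0.63. The median of all 28 measured hair shaft genes, -0.22, was 0.02 with normexp and -0.49 with single-array genes at their bound, which adds genes detected only where they were bright, an alternative added after the data were seen, as were the use of median spot signals in normexp, protein class by family number and the class of Krtap10. Classes by protein composition and the identity between gene copies were not run. The cause of these changes was not tested unless stated. Of 44 detected genes, 16 were too dim on the DKO-labelled array for a measured difference.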

Other observations

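Along chromosome 11 the hair keratins follow the Krtap cluster in the order Krt33a, Krt33b, Krt34, Krt31, Krt32, Krt35, Krt36. Krt33a and Krt33b differed by -1.78 and -2.13 and Krt34 was at least 5.41-fold lower, whereas Krt31, Krt35 and Krt36, further along, differed by -0.40, -0.39 and -0.17, with Krt32 between them at least 1.18-fold lower. Since Krt32 has only a bound, it cannot be ranked among them. The order was noticed in these data and has no replicate.

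On chromosome 16 the higher genes Krtap19-4 (1.42) and Krtap19-5 (1.02) lie side by side among the genes with a matched probe. Their neighbours on either side among these genes, Krtap19-3 and Krtap19-9b, were not detected and detected on the Rac3-KO array only. The last genes of the cluster, Krtap8-1 (-2.57), Krtap7-1 (at least 1.23-fold lower) and Krtap11-1 (-1.88 at its brighter probe and -0.26 at the other), were all lower. The Krtap7-1 bound, 0.29 in log2, and the second Krtap11-1 value were smaller than the SD of 0.38 between probes. Whether these runs of neighbours differ from other runs was not tested.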
